A study of Mus musculus with 6 samples.

Results

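The mitochondrial respiratory chain is a series of protein complexes in the inner mitochondrial membrane that pass electrons from NADH and succinate to oxygen and pump protons as they do so. Complex I (NADH dehydrogenase, genes named Nduf) takes electrons from NADH in an arm that reaches into the matrix and pumps protons in an arm buried in the membrane. Complex III (genes named Uqcr) hands them to cytochrome c, and complex IV (cytochrome c oxidase, genes named Cox) passes them to oxygen. Most subunits are made from nuclear genes in nearly every cell, but several complex IV subunits also exist as isoforms made mainly in muscle, lung or testis.

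Respiratory chain genes were described here in medullary epithelial cells of the thymus, the cells in which the transcriptional regulator Aire switches on genes of other organs. Members were taken by name: every gene with a probe set annotated with exactly 1 symbol, where the symbol starts with Nduf or Uqcr or is Cox followed by a digit from 4 to 8. This gave 68 of the 19938 genes on the array, measured by 80 probe sets. Of these, 34 encode complex I subunits, 8 complex III subunits and 19 complex IV subunits or their close relatives, and 7 (Ndufaf1 to Ndufaf7) are complex I assembly factors, which help to build the complex without staying in it. Ndufa4 was counted with complex IV, where its protein is now placed, together with its paralog Ndufa4l2.

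The study compared 3 mice labelled Aire WT with 3 labelled Aire KO (Aire-/-), all 4 to 6 weeks old and on the (B6xNOD)F1 background, a cross of the B6 and NOD strains. Each mouse gave 1 array. Medullary cells had been sorted as negative for the leukocyte marker CD45, intermediate for Ly51 and high for MHC class II, and the RNA was amplified in 2 rounds before hybridisation. Levels are log2 intensities on a 1-colour array normalised by RMA, so a difference of 1 is a doubling in signal, and a positive difference means a higher mean in the mice labelled KO. Since these are bulk samples, fewer cells with a transcript and less transcript per cell cannot be told apart.

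The probe set for Aire itself read 12.00, 11.92 and 11.99 in the WT mice and 12.38, 12.41 and 12.42 in those labelled KO. It was thus higher in every array labelled KO, and since the deleted part of the gene is not stated, it does not check the genotypes. WT and KO below stand for the labels. All 10 medullary epithelial markers looked at passed the intensity filter, and 3 of them fell and 1 rose by the test described below. For this and the marker counts that follow, that test called 14.1% of all tested genes lower and 12% higher. The summed intensity of 5 cortical epithelial markers ran from 3324 to 3504 in WT and from 4338 to 4560 in KO, with the cortical proteasome gene Psmb11 below the filter in both groups. Summed thymocyte markers (7 genes) ran from 692 to 1011 in WT and from 576 to 727 in KO, and summed B cell markers (4 genes) from 423 to 439 and from 480 to 508. Summed myeloid markers (6 genes) ran from 2928 to 3133 in WT and from 2708 to 2798 in KO, fibroblast markers (4 genes) from 1081 to 1323 and from 1366 to 1777, and endothelial markers (3 genes) from 204 to 225 and from 180 to 206. Genes within a sum could go opposite ways: of 4 tested cortical markers 2 rose and 1 fell, and of 4 fibroblast markers 1 rose and 1 fell. Of the tested genes, 1 of 6 thymocyte and 2 of 4 myeloid markers fell. Both tested B cell markers rose, and 0 of 2 endothelial markers were called. Apart from the fibroblast sum, these sums include genes below the filter. The part of such cells in the results below was not tested.

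Most subunit genes differed little between the genotypes. Genes were tested only where 3 or more arrays exceeded a log2 intensity of 5.97 (the 40th percentile over the whole table), and 59 of the 61 subunit genes and 5 of the 7 assembly factors passed. By limma with Benjamini-Hochberg adjustment over all 13925 tested genes (threshold 0.05), 5 subunit genes rose and 0 fell. At an unadjusted p under 0.05 the counts were 11 (18.6%) and 0, where 19.2% of all tested genes were higher and 19.4% lower. The same fit called 12% of all tested genes higher and 14.1% lower, beside 8.47% and 0 among the subunit genes. Among subunit genes the largest difference in either direction was 0.48, while 9.64% of all tested genes differed by more than 0.5. The called members were read by probe sets 10410508 (Ndufs6), 10452525 (Ndufv2), 10576029 (Cox4i1), 10399677 (Cox7a2l), 10559649 (Cox6b2) and 10503643 (Ndufaf4).

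Of the 54 subunit genes that were not called, 52 had a 95% confidence interval of the difference that lay inside -0.5 to 0.5, and the bounds of all 54 ran from -0.35 to 0.66. The intervals of the called genes Cox4i1 (0.13 to 0.49) and Cox6b2 (0.08 to 0.46) lay inside these limits too. The limits therefore do not exclude changes of the size called here. The median difference of the 59 was 0.07, against 0.02 for all tested genes, and 44 of the 59 had a positive value (74.6%, against 52.6% of all). KO arrays lay wholly above WT arrays in 10 of the 59 subunit genes and wholly below in 2, where 22% and 20.5% of all tested genes did so. Spread between mice was like that of other genes, with a median SD of 0.11 within a group for subunit genes and 0.11 for all tested genes, although the subunit probe sets were brighter (median level 8.98 against 7.74).

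**Figure D1:**
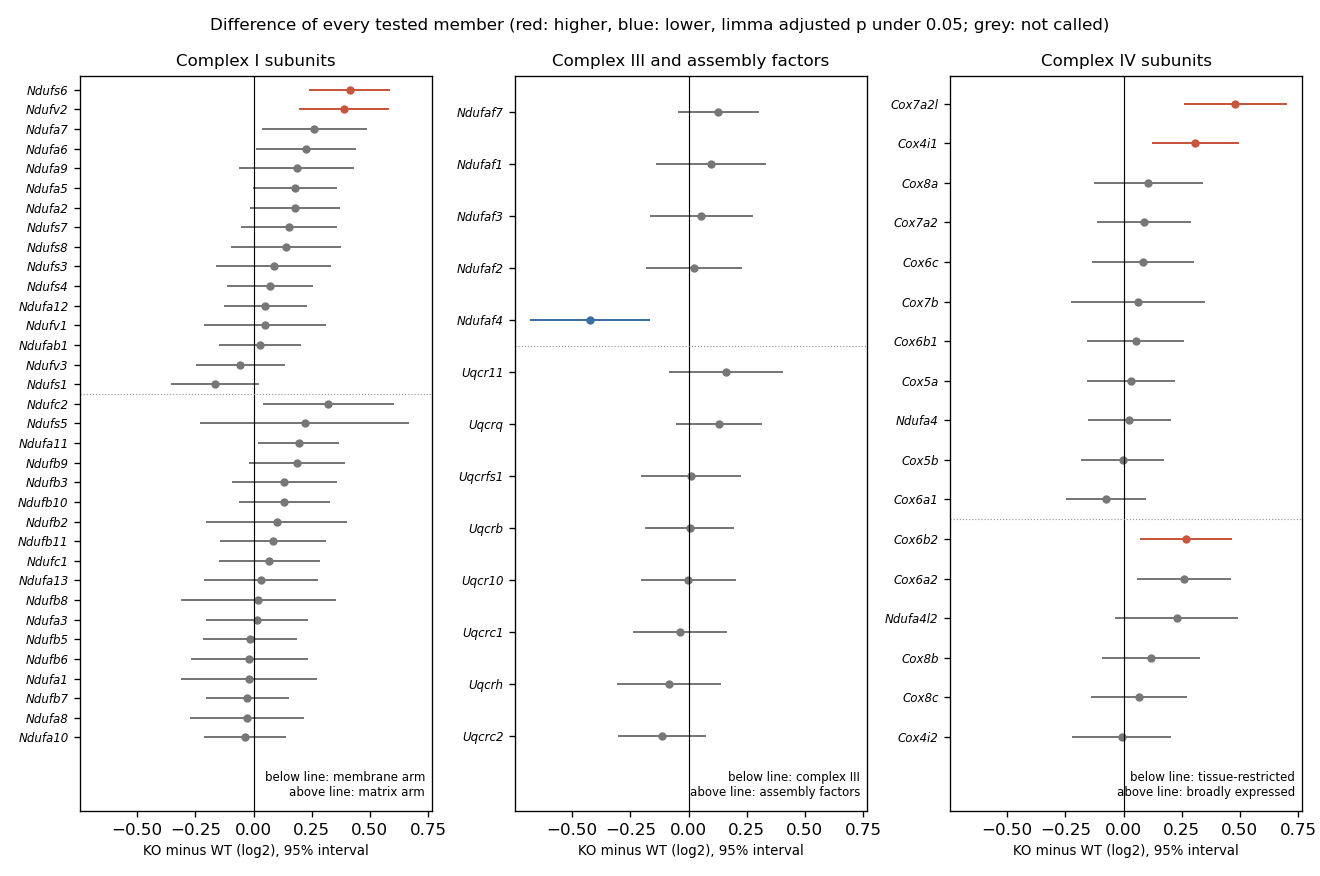
KO minus WT difference in log2 intensity (point) with its 95% confidence interval from limma (line) for the 64 tested members, by complex and, within panels, by set. The called genes, in colour, are Ndufs6, Ndufv2, Cox7a2l, Cox4i1 and Cox6b2 to the right of 0 and Ndufaf4 to its left, and most other intervals cross 0.

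Promoter sequences are shown for the called members with the largest differences that have one in the table, because transcription factors shared by many respiratory genes are known to bind near their starts. Each is the RefSeq window of 300 bases on GRCm38.p6, from 250 bases before the annotated start to 50 after it, written 5′ to 3′ along the gene. Capitals mark the motifs searched on either strand: GCGCATGC (the core of the NRF1 motif), CCGGAAG (bound by ETS factors such as GABPA) and AAGATGGCG (YY1). Ndufs6 lies at chr13:73328433-73328732 (minus strand), Ndufv2 at chr17:66101510-66101809 (minus), Cox7a2l at chr17:83514284-83514583 (minus) and Ndufaf4 at chr4:24897833-24898132 (plus).
Ndufs6: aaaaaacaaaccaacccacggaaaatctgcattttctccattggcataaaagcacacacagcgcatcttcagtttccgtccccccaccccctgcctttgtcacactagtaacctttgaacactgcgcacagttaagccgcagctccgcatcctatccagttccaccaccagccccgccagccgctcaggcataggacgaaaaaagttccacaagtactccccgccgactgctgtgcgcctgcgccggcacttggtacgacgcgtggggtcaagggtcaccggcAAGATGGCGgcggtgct
Ndufv2: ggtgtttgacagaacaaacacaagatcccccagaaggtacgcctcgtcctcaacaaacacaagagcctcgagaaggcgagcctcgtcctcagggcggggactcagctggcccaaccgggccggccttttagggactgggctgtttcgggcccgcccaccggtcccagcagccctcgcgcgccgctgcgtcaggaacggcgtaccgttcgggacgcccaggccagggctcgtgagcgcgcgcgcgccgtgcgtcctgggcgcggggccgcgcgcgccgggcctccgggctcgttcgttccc
Cox7a2l: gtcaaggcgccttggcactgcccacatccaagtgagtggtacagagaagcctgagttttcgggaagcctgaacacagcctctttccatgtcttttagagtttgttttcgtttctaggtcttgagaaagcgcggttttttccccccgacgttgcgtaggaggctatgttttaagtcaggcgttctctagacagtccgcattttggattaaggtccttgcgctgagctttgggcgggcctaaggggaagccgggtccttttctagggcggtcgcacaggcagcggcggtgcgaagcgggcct
Ndufaf4: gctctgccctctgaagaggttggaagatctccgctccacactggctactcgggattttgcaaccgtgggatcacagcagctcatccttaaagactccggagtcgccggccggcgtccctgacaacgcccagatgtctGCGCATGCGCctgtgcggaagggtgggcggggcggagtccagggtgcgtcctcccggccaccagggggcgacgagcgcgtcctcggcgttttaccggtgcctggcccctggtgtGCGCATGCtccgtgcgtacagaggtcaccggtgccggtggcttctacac

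In these windows Ndufs6 holds the YY1 letters once, between its start and the end of the window. Ndufaf4 holds 3 matches to the NRF1 core, of which 2 overlap on opposite strands. Ndufv2 and Cox7a2l hold none of the searched letters, nor does the window of Cox6b2, which is not printed, and this says only that these letters are not in these windows. Of the members called higher, 4 have a window and 1 of those holds a motif. Of the 68 members, 55 had a window in the table (57 windows). At least 1 of the 3 motifs stood in 36.8% of the members' windows and in 12.1% of all 32851 windows. The NRF1 core was in 14.0% of members' windows against 2.71% of all, the ETS letters in 17.5% against 8.86% and the YY1 letters in 8.77% against 1.40%. Members' windows were also richer in G and C (median 57.3% against 52.7%). A match is a description of the sequence and not evidence of binding.

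In complex I, 2 of 34 subunit genes rose (5.88%, against 12% of all tested genes) and 0 fell, with a median difference of 0.08. Ndufs6, an accessory subunit that binds zinc at the NADH-oxidising end, read 7.59, 7.67 and 7.58 in the WT mice and 8.03, 8.01 and 8.04 in the KO mice. All KO arrays lay above all WT arrays, and the gap between the groups was wider than the range within either. The rise was 0.41, or 1.33-fold (SE 0.08, n = 3 per group, limma adjusted p = 0.00246). Ndufv2, a core subunit that carries an iron-sulfur cluster next to the NADH site, read 10.35, 10.31 and 10.51 in WT and 10.82, 10.72 and 10.79 in KO. Its groups did not overlap either. It rose by 0.39 (SE 0.09, n = 3 per group, limma adjusted p = 0.00654). Both genes kept their call in all 15 alternatives tried, with differences between 0.36 and 0.44 for Ndufs6 and between 0.35 and 0.45 for Ndufv2.

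Ndufs6 and Ndufv2 belong to the matrix arm, the part of complex I that oxidises NADH and passes electrons to ubiquinone. Of its 16 tested genes, 2 rose and 0 fell (5 and 0 at an unadjusted p under 0.05), with a median of 0.15, and 14 had a positive difference. The share called higher, 12.5%, is close to the 12% of all tested genes. The share higher at an unadjusted p under 0.05 was 31.2%, against 19.2% of all, and the share with a positive difference was 87.5%, against 52.6%. Ndufa7 (0.26, limma adjusted p = 0.0771), Ndufa6 (0.22, adjusted p = 0.108) and Ndufa5 (0.18, adjusted p = 0.121), accessory subunits of this arm, were not called. Ndufa7 read 7.87, 7.87 and 7.56 in WT and 8.10, 8.03 and 7.95 in KO, so its groups did not overlap, whereas those of Ndufa6 did. The core subunits other than Ndufv2 moved little: Ndufs3 stood at 0.09, Ndufs7 at 0.15, Ndufs8 at 0.14 and Ndufv1 at 0.05. Ndufs1, a core subunit that carries iron-sulfur clusters, had the most negative difference of the tested subunit genes. It read 9.41, 9.37 and 9.57 in WT and 9.27, 9.32 and 9.26 in KO, so every KO array lay below every WT array. At -0.16 it was not called (SE 0.08, n = 3 per group, limma adjusted p = 0.174).

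Other matrix-arm genes gave Ndufa2 0.18, Ndufa9 0.18, Ndufs4 0.07, Ndufa12 0.05, Ndufab1 (the mitochondrial acyl carrier protein) 0.03 and Ndufv3 -0.06, none of them called. In the membrane arm, which holds the proton-pumping part, 0 of 18 genes rose and 0 fell by limma (12% and 14.1% of all tested genes), with a median of 0.05. At an unadjusted p under 0.05, 2 were higher (11.1%, against 19.2% of all tested genes) and 0 lower. Ndufc2, an accessory subunit of this arm, read 11.60, 11.64 and 11.23 in WT and 11.93, 11.59 and 11.91 in KO. KO replicate 2 lay inside the WT range, and the difference of 0.32 was not called (limma adjusted p = 0.0840). It was called when KO replicate 2 was left out. Ndufa11, which sits where complex I meets complex III in supercomplexes, read 9.49, 9.46 and 9.55 in WT and 9.69, 9.67 and 9.72 in KO. Its groups did not overlap, but a difference of 0.19 did not pass (limma adjusted p = 0.0868).

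Other membrane-arm genes lay between -0.04 (Ndufa10) and 0.22 (Ndufs5). Ndufs5 varied most between mice of all subunit genes, at 7.45, 8.07 and 7.02 in WT and 7.60, 7.70 and 7.89 in KO. Its interval, -0.22 to 0.66, was accordingly the widest. Ndufb9 stood at 0.19, Ndufb3 and Ndufb10 at 0.13, Ndufb2 at 0.10, Ndufb11 at 0.08 and Ndufc1 at 0.07. Ndufa13, Ndufb8, Ndufa3, Ndufb5, Ndufb6, Ndufa1, Ndufb7 and Ndufa8 all lay between -0.03 and 0.03.

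**Figure D2:**
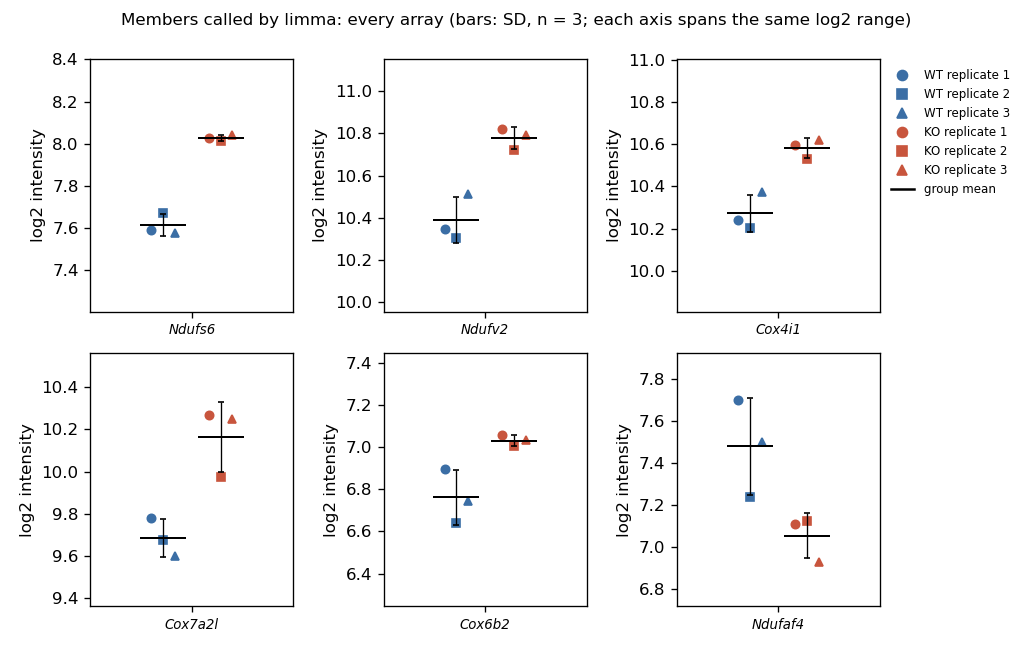
Log2 intensity (vertical axis) of the 6 called members in each array, with WT in blue, KO in red, a marker shape per replicate, the group mean as a line and the SD as a bar (n = 3). In each of the 6 panels the groups are separate, with the narrowest gaps in Cox6b2 and Ndufaf4.

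Among the 64 tested members, 1 gene fell, and it encodes a complex I assembly factor. Ndufaf4, which works with Ndufaf3 early in the building of the matrix arm, read 7.70, 7.24 and 7.50 in WT and 7.11, 7.13 and 6.93 in KO. The groups did not overlap, though WT replicate 2 came close to the KO mice. The gene fell by 0.42 (SE 0.12, n = 3 per group, limma adjusted p = 0.020). Leaving out WT replicate 1 ended the call (-0.31, limma adjusted p = 0.0705), as did leaving out WT replicate 3 (-0.41, 0.0504) or KO replicate 3 (-0.36, 0.0858). Its partner Ndufaf3 stood at 0.06, Ndufaf1 at 0.10, Ndufaf2 at 0.02 and Ndufaf7, a methyltransferase that modifies a matrix-arm subunit, at 0.13, none of them called. Ndufaf5 and Ndufaf6 were below the intensity filter on all arrays.

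Complex III gave no calls. By limma 0 of its 8 genes rose and 0 fell, where 12% and 14.1% of all tested genes did so. At an unadjusted p under 0.05, 0 passed in either direction, against 19.2% of all tested genes higher and 19.4% lower. So short a list can show few calls at these shares. Differences ran from -0.11 to 0.16, with a median of 0.00. Uqcrc2, a core protein of the complex, read 10.66, 10.58 and 10.73 in WT and 10.46, 10.57 and 10.61 in KO, with overlapping groups (-0.11, 95% interval -0.30 to 0.07). The other core protein, Uqcrc1, stood at -0.04, and Uqcrfs1, the Rieske iron-sulfur protein that passes electrons on towards cytochrome c, at 0.01 (95% interval -0.20 to 0.22). Uqcrb and Uqcr10 stood at 0.01 and 0.00, Uqcrh at -0.08, Uqcrq at 0.13 and Uqcr11 at 0.16.

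In complex IV, 3 of 17 tested genes rose (17.6%, against 12% of all tested genes) and 0 fell, with a median of 0.08. At an unadjusted p under 0.05, 4 were higher (23.5%, against 19.2% of all) and 0 lower. The 3 include Cox7a2l. Cox7a2l gave the largest difference of any member. Its protein, also called SCAF1, joins complex III to complex IV in supercomplexes and is not a fixed part of the enzyme. It read 9.78, 9.67 and 9.60 in WT and 10.27, 9.97 and 10.25 in KO. The lowest KO mouse, replicate 2, still lay above the highest WT mouse. Cox7a2l rose by 0.48, or 1.39-fold (SE 0.10, n = 3 per group, limma adjusted p = 0.00453), and was called in all 15 alternatives with differences between 0.43 and 0.58. Its other probe set, 10453254, read 8.84, 8.83 and 8.66 in WT and 9.48, 9.26 and 9.52 in KO. There the difference was 0.64 (limma adjusted p = 0.000611 when each probe set was tested by itself).

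Cox4i1, the widely expressed form of subunit 4, read 10.24, 10.20 and 10.37 in WT and 10.60, 10.53 and 10.62 in KO. All KO arrays lay above the WT arrays. The rise of 0.31 passed with all arrays (SE 0.08, n = 3 per group, limma adjusted p = 0.0183). With WT replicate 1 left out it did not pass (0.29, limma adjusted p = 0.0580). The same held for leaving out WT replicate 2 (0.27, 0.0650), for KO replicate 1 (0.30, 0.0642) and for KO replicate 3 (0.29, 0.0712). The other broadly expressed subunits were not called: Cox5a stood at 0.03, Cox5b at 0.00, Cox6a1 at -0.08, Cox6b1 at 0.05, Cox6c at 0.08, Cox7a2 at 0.09, Cox7b at 0.06, Cox8a at 0.11 and Ndufa4 at 0.03. Cox6a1 read 9.94, 9.90 and 9.99 in WT and 9.88, 9.87 and 9.86 in KO, so its groups were apart at a very small difference (limma adjusted p = 0.497).

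Among the 8 tissue-restricted isoforms 1 rose and 0 fell (2 and 0 at an unadjusted p under 0.05, limma). Cox7a1 (striated muscle) and Cox7b2 (testis) were below the intensity filter on all arrays, which left 6 tested. The 1 rise is 16.7% of these 6, against 12% of all tested genes. Cox6b2, the testis form of subunit 6b, read 6.90, 6.64 and 6.75 in WT and 7.06, 7.00 and 7.03 in KO. The KO mice agree closely and lie just above the highest WT mouse. It rose by 0.27 at the edge of the threshold (SE 0.09, n = 3 per group, limma adjusted p = 0.0431). Of the single arrays, leaving out any but WT replicate 1 ended the call, with differences between 0.21 (WT replicate 2, limma adjusted p = 0.148) and 0.28 (KO replicate 2, 0.0741). It was lost as well with no intensity filter (adjusted p = 0.0540), an offset of 32 (0.0514) and trended, robust variances (0.0539).

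Cox6a2, the heart and skeletal muscle form of subunit 6a, read 7.38, 7.20 and 7.17 in WT and 7.54, 7.58 and 7.41 in KO. The groups did not overlap and the difference was 0.26, but it narrowly failed (SE 0.09, n = 3 per group, limma adjusted p = 0.0547). It passed without WT replicate 1 (0.32, adjusted p = 0.0395), after another quantile normalisation (0.27, 0.0322), with arrays centred on their median (0.27, 0.0390) and with a stricter intensity filter (0.26, 0.0437). Cox8b, the muscle form of subunit 8, stood at 0.12 on levels next to the filter, the testis form Cox8c at 0.07, the lung form Cox4i2 at -0.01 and Ndufa4l2, known as a hypoxia-induced gene, at 0.23, none of them called. Ndufa4l2 varied between 6.31 and 6.74 in WT and between 6.57 and 6.87 in KO. Cox4i2 ran from 6.71 to 6.90 in WT and from 6.67 to 6.94 in KO, and Cox8c from 6.81 to 7.09 and from 6.97 to 7.07. Cox8b ran from 5.93 to 6.21 in WT and from 6.08 to 6.23 in KO. The groups of all 4 of these isoforms overlapped. Cox7b2, untested, read 4.06, 3.83 and 3.94 in WT and 4.27, 4.29 and 4.10 in KO. Of 15 tested striated muscle genes in the same arrays, 7 fell and 1 rose (median -0.27). These are 46.7% and 6.67%, against 14.1% and 12% of all tested genes. Cardiac actin Actc1 fell by 1.10 and troponin Tnni1 by 0.89, and desmin (Des) rose by 1.12. Embryonic myosin Myh3, also among the 7, was above the filter in WT mice only. It was thus tested only through the group where it is high, and the size of its fall is uncertain (-1.59 as fitted and -1.20 with an offset of 32). With no intensity filter, 8 of 18 striated muscle genes fell and 1 rose, where 2191 of all 19938 genes fell and 1781 rose.

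**Figure D3:**
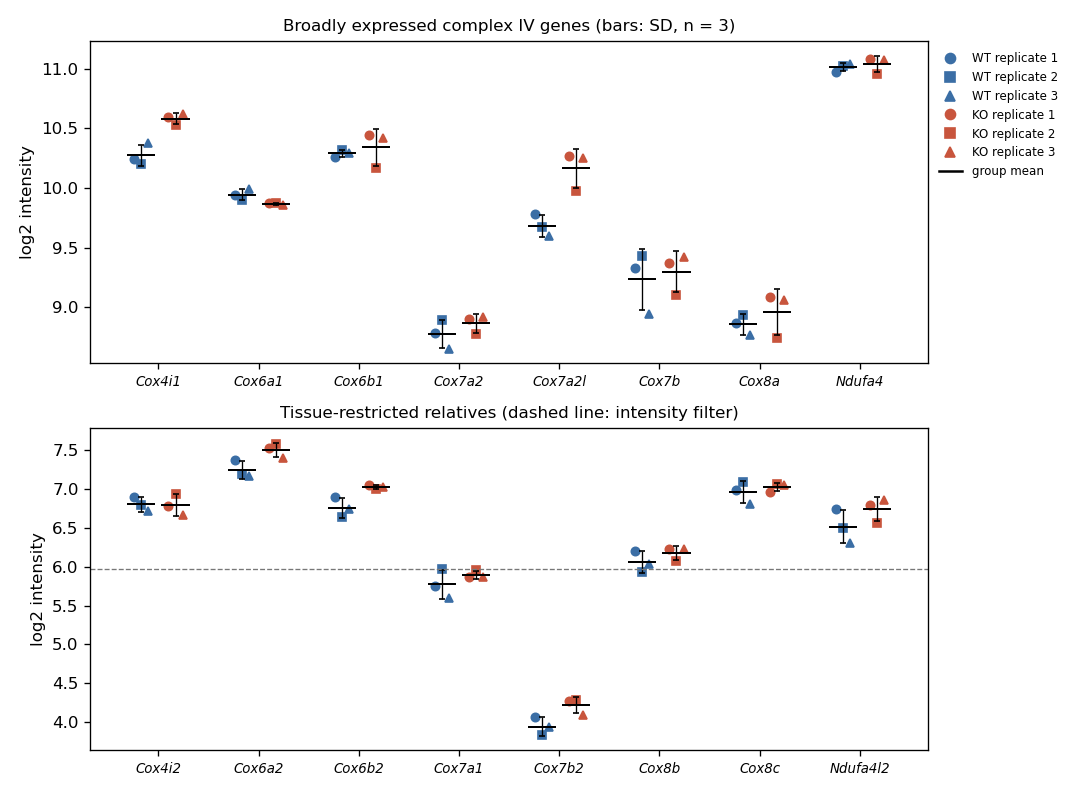
Log2 intensity in each array of 8 broadly expressed complex IV genes (top) and 8 tissue-restricted relatives (bottom), with group means and SD (n = 3). The dashed line is the intensity filter, which Cox7a1 and Cox7b2 do not pass, and the KO points of Cox4i1, Cox7a2l, Cox6a2 and Cox6b2 sit above the WT points.

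KO replicate 2 gave the lowest of the KO values in 41 of the 59 tested subunit genes (69.5%), while it was the lowest KO array for 26.0% of all tested genes. WT replicate 3 was the lowest WT array in 33 of the 59 (55.9%, against 35.5% of all). Set against the WT mean of each gene, the median subunit gene stood at 0.13 in KO replicate 1, 0.00 in KO replicate 2 and 0.15 in KO replicate 3, and at 0.00, 0.01 and -0.04 in the WT mice. The median of KO replicate 2 therefore lay within the range of the WT mice, and those of the other KO mice lay above it. Without KO replicate 2 the median difference of complex I was 0.17 in place of 0.08. The same array was lowest of the KO arrays in 38 of 76 mitochondrial ribosome genes and in 11 of 17 complex V genes. WT replicate 3 and KO replicate 2 also had the lowest weights when limma estimated the quality of each array (0.361 and 0.724), and the part of array quality in this pattern was not tested.

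**Figure D4:**
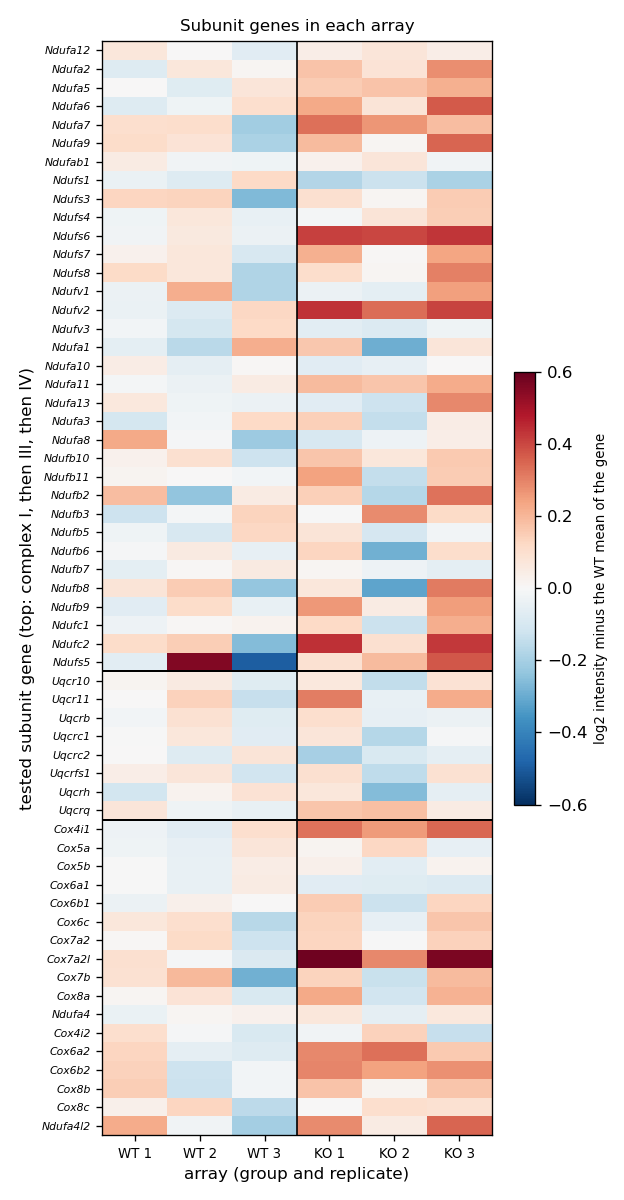
Log2 intensity minus the WT mean of the same gene (colour) for 59 tested subunit genes in each of the 6 arrays, with lines between complexes and between genotypes. KO replicates 1 and 3 are mostly red, KO replicate 2 is paler or blue for many genes, and Ndufs6, Ndufv2, Cox4i1 and Cox7a2l are red in all 3 KO arrays.

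Members with more than 1 probe set gave a check within the arrays. Of the 11 such genes, the probe sets of Uqcrb alone differed in sign, with all 3 between -0.05 and 0.01. Ndufb11 stood at 0.08 by the brighter probe set and 0.27 by the other (limma adjusted p = 0.0597), and Uqcr11 at 0.16 and 0.30 (adjusted p = 0.0522). Respiratory genes have many processed pseudogenes, and whether probes also read those was not tested. Probe sets with several symbols were left out of the members. The 3 shared by Cox7c and Gm12338 gave 0.00, 0.01 and 0.04, and the 2 shared by Ndufb4 and Ndufb4b gave 0.10 and 0.13. The probe set shared by Ndufs5 and its pseudogene gave 0.00, against the 0.22 of Ndufs5 above. Ndufs7 and Uqcr11 lie on chromosome 10 with Aire, 49 and 60 tested genes away from it in the RefSeq order of GRCm38.p6, and neither was called.

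The parts of oxidative phosphorylation outside the member list were read in the same arrays, from lists of known genes. Complex II, which feeds electrons from succinate, had 0 of 4 genes called higher or lower by limma (0 at an unadjusted p under 0.05), with Sdha at -0.12 and Sdhb at 0.20. Of all tested genes 12% were called higher and 14.1% lower (19.2% and 19.4% unadjusted). Of 17 complex V genes, which encode the ATP synthase, 1 rose and 0 fell (2 and 0 at an unadjusted p under 0.05), with a median of -0.03. The share called higher in complex V was 5.88%, against 12% of all tested genes. Atp5j2, a subunit of its membrane part, rose by 0.36 from 10.15 ± 0.24 to 10.51 ± 0.04 (SD, n = 3, limma adjusted p = 0.0348). Its call was lost without WT replicate 1, WT replicate 3 or any 1 of the KO arrays (adjusted p up to 0.104). Atp5b, the catalytic beta subunit, stood at -0.20 and was not called. Cytochrome c (Cycs), the carrier between complexes III and IV, read 10.31, 10.38 and 10.35 in WT and 10.14, 10.23 and 10.13 in KO, a difference of -0.18 that was not called (limma adjusted p = 0.115). Of the probe sets annotated with genes of the mitochondrial genome, COX2 stood at -0.20 (not called) and ND3, named for a complex I subunit, fell by 0.34 with overlapping groups (limma adjusted p = 0.0488). ND3 lost that call in 10 of 15 alternatives, among them the removal of WT replicate 1 or 2 or of any 1 KO array (adjusted p up to 0.162). Whether these probe sets also read nuclear copies of mitochondrial sequence was not tested.

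Assembly factors of all complexes numbered 34 tested, of which 4 rose and 1, Ndufaf4, fell (median 0.09). The share called higher, 11.8%, is close to the 12% of all tested genes, and 2.94% were called lower, against 14.1%. Cox17, a copper chaperone for complex IV, rose by 0.49 from 8.79 ± 0.08 to 9.28 ± 0.11 (SD, n = 3, limma adjusted p = 0.00187) and was called in all 15 alternatives. Coa3 rose by 0.34, Surf1 by 0.26 and Acad9, a complex I assembly factor, by 0.26. With 1 array left out, the list had between 1 and 3 rises. Coa3 lost its call without WT replicate 1 or 3 or KO replicate 1 or 3 (adjusted p up to 0.0953), Surf1 without any array other than KO replicate 2 (up to 0.163) or with no intensity filter (0.0527), and Acad9 without WT replicate 1 or any 1 of the KO arrays (up to 0.104).

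Of 76 mitochondrial ribosome genes, which translate the subunits made inside the organelle, 7 rose and 0 fell (14 and 0 at an unadjusted p under 0.05), with a median of 0.07. The share called higher was 9.21%, against 12% of all tested genes. Mrpl13 had the largest rise of the list, 1.06 from 8.92 ± 0.05 to 9.98 ± 0.02 (SD, n = 3, limma adjusted p = 2.17e-06). Mrpl14 rose by 0.42, Mrps10 by 0.41 and Mrps35 by 0.35, and the last was not called with WT replicate 2 or either of KO replicates 1 and 3 left out (adjusted p up to 0.0837). The number of rises in this list was between 3 and 8 with 1 array left out.

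Genes of the tricarboxylic acid cycle, which supplies NADH to complex I, were listed with pyruvate dehydrogenase genes and had mostly negative differences. The median of the 15 was -0.13, and 12 values were negative. Positive differences made up 20% of the list, against 52.6% of all tested genes. Of the 15, 2 fell and 0 rose (4 and 1 at an unadjusted p under 0.05). The unadjusted shares were 26.7% lower and 6.67% higher, against 19.4% and 19.2% of all tested genes. The share called lower, 13.3%, is close to the 14.1% of all tested genes. Idh3a, a subunit of the NAD-dependent isocitrate dehydrogenase, fell by 0.37 from 9.64 ± 0.03 to 9.27 ± 0.02 (SD, n = 3, limma adjusted p = 0.00457) and was called in all 15 alternatives. Pdha1 of pyruvate dehydrogenase fell by 0.31 and lost its call without any array other than KO replicate 2 (adjusted p up to 0.125). Of 16 glycolysis genes, 8 rose and 2 fell (also 8 and 2 at an unadjusted p under 0.05), with a median of 0.21. These are 50% and 12.5%, against 12% and 14.1% of all tested genes. Pfkm, a phosphofructokinase, rose by 0.98 from 8.39 ± 0.06 to 9.37 ± 0.13 (SD, n = 3, limma adjusted p = 1.43e-05). Hexokinase Hk2 rose by 0.54 and the glucose transporter gene Slc2a1 by 0.46, while the lactate dehydrogenase gene Ldhb fell by 0.57. These 4 kept their calls in all 15 alternatives, and with 1 array left out between 4 and 7 glycolysis genes rose and 1 or 2 fell.

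Among 20 regulators of respiratory genes, 3 fell and 0 rose (4 and 1 at an unadjusted p under 0.05). The share called lower was 15%, against 14.1% of all tested genes. Ppargc1a, the coactivator known to drive mitochondrial biogenesis, read 6.88, 7.28 and 7.14 in WT and 6.73, 6.43 and 6.49 in KO. It fell by 0.55 (SE 0.12, n = 3 per group, limma adjusted p = 0.00503) with groups that did not overlap, and was called in all 14 alternatives in which it was tested. Tfb1m, which modifies the mitochondrial ribosomal RNA, fell by 0.33 and was not called with WT replicate 1 or 3 or KO replicate 2 or 3 left out (adjusted p up to 0.0935). Myc fell by 0.24 but was called in only 7 of 15 alternatives. Its call was lost without any array other than KO replicate 2 (limma adjusted p up to 0.173), with no intensity filter (0.0597) and with arrays centred on their median (0.0589). Nrf1 (-0.01), Gabpa (-0.14), Esrra (0.12), Yy1 (-0.21) and Tfam, which packages and transcribes mitochondrial DNA (0.04), were not called. Of 16 antioxidant and mitochondrial stress genes, 2 rose, catalase (Cat) by 0.39 and the stress factor Atf5 by 0.36, and 1 fell, the chaperonin Hspd1 by 0.27. These are 12.5% and 6.25% of the list, against 12% and 14.1% of all tested genes. Cat and Atf5 were called in all 15 alternatives. Hspd1 was called in 7 of 15 and was not called when WT replicate 1 or 2 or KO replicate 1 or 3 was left out, nor with no intensity filter (limma adjusted p = 0.0535), another quantile normalisation (0.0516) or probe sets averaged (0.0609).

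**Figure D5:**
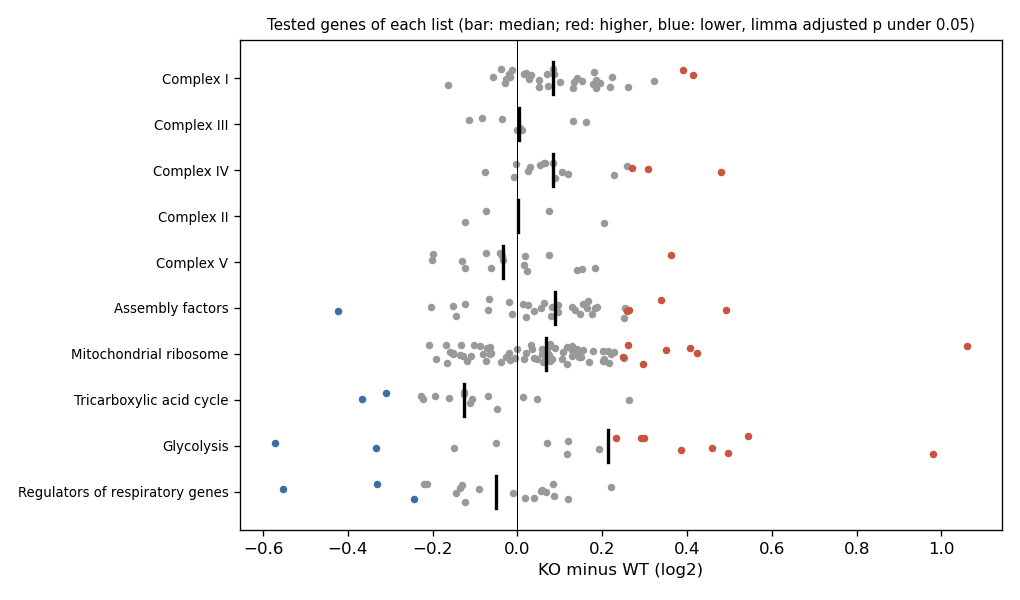
KO minus WT difference in log2 intensity of each tested gene (points, spread vertically for legibility) in 3 member groups and 7 related lists, with the median as a bar. Complexes I, III and IV sit close to 0 within -0.16 to 0.48, the tricarboxylic acid cycle lies mostly to the left, and glycolysis spreads furthest, from -0.57 to 0.98.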

How the data were processed

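The authors deposited probe set intensities on the linear scale, which the submitters' processing notes say were made with RMA, for 6 arrays with medians between 92.9 and 98.2. RMA equalises the distributions of arrays, so a change in total RNA per cell cannot be seen, and it compresses dim signals. The version of RMA is not given in the sources read.

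Intensities were log2 transformed with no pseudocount. Of 35512 probe sets, 21789 name exactly 1 symbol. The brightest of these on average stood for each of 19938 genes, and 13925 genes passed the filter. The test was limma 3.58.1 (lmFit, eBayes, two-sided) in R 4.3.3 with genotype as the only factor. The test was also tried on simulated data, drawn with the means and SDs of the genes that passed the filter. In that setting it recovered 12% of added log2 changes of 0.3, 56% of those of 0.5 and 96% of those of 1. In the data the test called 14.1% of all tested genes lower and 12% higher. Whether the recovery rates hold at such shares was not tested. A gene that was not called is not shown to be unchanged.

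Every member was accounted for. Values per array are given for called members. Tissue-restricted isoforms and their broadly expressed partners are named whether or not called, and from each related list up to 4 called genes in order of adjusted p. Per-array values of members that were not called, and uncalled genes of other lists, were chosen after their values were seen. Members and lists were chosen with earlier results of these data known. Alternatives covered the filter, normalisation, centring, an offset, averaging probe sets, variance estimation, weighting arrays, a replicate block and each array left out. The main test did not pair mice by replicate number. Figures were drawn with matplotlib 3.10.9.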

Additional observations from a re-analysis of the deposited data

How the results depend on the processing

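Under all 15 alternatives 0 subunit genes were called lower, and Ndufs6, Ndufv2 and Cox7a2l stayed called higher. The count of subunit genes called higher was 8 with array weights, which added Ndufa5, Ndufa6 and Ndufa11, and ranged from 3 to 5 with 1 array left out. Removing KO replicate 1 or KO replicate 3 left 3, with Cox4i1 and Cox6b2 lost. With 1 array left out, the median difference ranged from 0.052 to 0.17 in complex I (0.17 without KO replicate 2), from -0.04 to 0.05 in complex III and from 0.05 to 0.15 in complex IV. Over all tested genes, leaving out 1 array gave between 1052 (without KO replicate 1) and 1547 called higher and between 1364 and 1877 lower, and the other alternatives gave between 1337 and 2037 higher and between 1461 and 2319 lower. With the replicate number as a block, 4 subunit genes rose (Cox6b2 was lost, limma adjusted p = 0.0668) and 1368 of all tested genes were called higher and 1742 lower. The block also ended the calls of Surf1 (0.0774) and Acad9 (0.0682), which left 2 of 4 assembly factor rises, and those of Myc (0.0935), ND3 (0.0588) and Hspd1 (0.0750). Deviations of same-numbered mice correlated at -0.02, -0.21 and -0.06, and those of other pairs ran up to 0.15 (WT replicate 2 with KO replicate 1). Deviations from a mean of 3 mice are not independent, so these values cannot decide whether the numbers pair mice. With 3 arrays a group and a background that RMA values do not report, changes of dim isoforms such as Cox8b, Cox7a1 and Cox7b2 are the least certain, and signal over background was not tested.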
